A study of Mus musculus with 12 samples.

Results

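The 7 genes Prss56, Mybpc1, Esyt3, Cxcr4, Srpx, Rbfox2 and Aldh1a1 were examined, out of 18194 genes measured in mouse spinal cord. They were taken by name because their signal was high in Olig2cre/DA-Cat cords relative to wild type in an earlier analysis of the same arrays, so their genotype differences are given as a description, without a test. On the arrays they are represented by 12 of 45101 probe sets, namely 3 for Mybpc1, 4 for Rbfox2 and 1 for each of the other genes. The arrays fall into Olig2cre/DA-Cat and wild-type littermate cords, each at day 4 and at day 15, with 3 biological replicates in each of the 4 groups. Olig2cre places Cre recombinase in cells that use the Olig2 gene, which include oligodendrocyte precursors and motor neuron progenitors, and in DA-Cat mice the β-catenin made after recombination is dominantly active. No group carried Cre alone, so Cre and DA-Cat cannot be told apart. All 4 groups share a label of spinal white matter injected with 1% lysolecithin, which strips myelin, and a protocol on mice of 8 to 10 weeks. The labels also tag day as a developmental stage. Their protocol names 14 days after the lesion and neither day 4 nor day 15, so what the days count from is not settled. Whether a sample is 1 animal or a pool is not stated, and p-values measure the spread between these samples.

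β-catenin is the transducer of canonical Wnt signalling. When it is not degraded it enters the nucleus, binds TCF and LEF factors on DNA and raises the transcription of their targets, among them feedback inhibitors such as Axin2, Nkd1 and Notum. In the oligodendrocyte lineage, strong Wnt signalling is known for holding precursors back from maturing. The 7 genes are not usual members of that feedback loop and have unlike roles. Prss56 is a secreted trypsin-like serine protease, Cxcr4 the receptor of the chemokine Cxcl12, and Srpx a secreted protein with sushi repeats. Esyt3 is an extended synaptotagmin that tethers the endoplasmic reticulum to the plasma membrane, Aldh1a1 an enzyme that makes retinoic acid from retinaldehyde, Rbfox2 a regulator of alternative splicing, and Mybpc1 a myosin-binding protein of slow skeletal muscle.

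Since β-catenin acts through TCF and LEF factors, the sequence around the start of each gene was searched for CTTTGA, the core of their recognition site, and for the longer CTTTGAT, which contains it, on both strands. RefSeq windows of build GRCm38.p6, from 250 bases before to 50 bases after an annotated start, matched 6 of the 7 genes by symbol, Aldh1a1 with 2 windows; Rbfox2 had no entry. The windows that hold a match are shown first, followed by those of Cxcr4 and Esyt3, which stood higher in Olig2cre/DA-Cat at both days. Mybpc1 did so as well, and its window, without a match, is not shown. Capitals mark CTTTGA or its reverse complement TCAAAG.
Prss56, chr1:87183064-87183363, plus strand: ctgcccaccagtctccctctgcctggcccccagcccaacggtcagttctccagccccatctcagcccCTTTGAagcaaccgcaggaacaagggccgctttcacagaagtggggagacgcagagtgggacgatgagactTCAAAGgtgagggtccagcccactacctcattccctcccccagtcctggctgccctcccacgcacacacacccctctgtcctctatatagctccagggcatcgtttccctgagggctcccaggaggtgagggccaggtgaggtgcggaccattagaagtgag
Aldh1a1, chr19:20492333-20492632, plus strand: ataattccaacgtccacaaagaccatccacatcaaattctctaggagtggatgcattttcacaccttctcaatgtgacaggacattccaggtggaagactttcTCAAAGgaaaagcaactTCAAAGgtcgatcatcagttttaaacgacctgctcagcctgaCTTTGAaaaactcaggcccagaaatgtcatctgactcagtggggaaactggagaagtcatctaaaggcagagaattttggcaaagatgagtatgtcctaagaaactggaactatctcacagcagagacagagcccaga
Cxcr4, chr1:128592250-128592549, minus strand: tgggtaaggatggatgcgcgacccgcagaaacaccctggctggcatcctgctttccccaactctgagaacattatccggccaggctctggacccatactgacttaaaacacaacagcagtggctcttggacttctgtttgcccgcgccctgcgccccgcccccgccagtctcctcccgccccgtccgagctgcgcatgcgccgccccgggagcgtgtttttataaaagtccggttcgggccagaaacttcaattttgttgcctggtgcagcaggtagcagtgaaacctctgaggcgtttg
Esyt3, chr9:99358481-99358780, minus strand: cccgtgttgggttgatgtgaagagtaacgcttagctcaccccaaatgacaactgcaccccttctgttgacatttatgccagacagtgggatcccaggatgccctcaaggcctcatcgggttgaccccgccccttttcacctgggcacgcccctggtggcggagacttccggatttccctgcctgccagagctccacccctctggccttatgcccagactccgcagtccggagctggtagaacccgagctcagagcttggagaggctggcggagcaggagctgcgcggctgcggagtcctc

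The Prss56 window held CTTTGA 2 times, beginning 183 and 112 bases before the annotated start, once on each strand. The first of the Aldh1a1 windows held it 3 times, beginning 147, 130 and 88 bases before the start. The other Aldh1a1 window, chr19:20601718-20602017, lies downstream of it on the plus strand and held none. Which of these annotated Aldh1a1 starts is used in the cords was not analysed here. The windows of Mybpc1, Esyt3, Cxcr4 and Srpx held none either, and none of the 7 windows held CTTTGAT. Of 32851 windows of the same length, 16.0% held CTTTGA at least once, 1.73% held it 2 times or more, and 3.73% held CTTTGAT. A match is a string of letters and not a shown binding site.

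All levels below are log2 signals as deposited, and differences are log2. The lower quartile of an array lay between 4.48 and 4.57 and its median between 6.14 and 6.19. The neuron markers averaged 12.03 to 12.32 per array, although a label names white matter. The oligodendrocyte list averaged 8.86 to 9.11 on the Olig2cre/DA-Cat arrays and 11.53 to 11.74 on the wild-type arrays at day 4. For day 15 it averaged 12.33 to 12.67 in Olig2cre/DA-Cat and 12.96 to 13.07 in wild type. In such tissue, fewer cells of a type and less RNA per cell cannot be told apart. Of 14 Wnt feedback genes, a list for comparison, 9 rose at day 4 (0 fell) and 5 rose at day 15 (0 fell), where 1.3% and 0.616% of all genes were called higher in the limma fit. Ctnnb1, the β-catenin gene, differed by -0.05 to 0.12 at day 4 and by -0.10 to -0.05 at day 15 over its 3 probe sets; which part of the gene they cover was not analysed here.

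The label under which the genes were grouped, induced by DA-Cat, did not apply at both days to Srpx, Rbfox2 and Aldh1a1. At day 4 the 3 Olig2cre/DA-Cat values lay above all 3 wild-type values for 5 genes (Prss56, Mybpc1, Esyt3, Cxcr4 and Aldh1a1), and 18.8% of all genes had that order. At day 15 they did for 6 genes (all but Aldh1a1), against 10.6% of all genes. Prss56, Mybpc1, Esyt3 and Cxcr4 belonged to both, and the share of all genes with that order at both days was not analysed here. Srpx and Rbfox2 overlapped between the genotypes at day 4, and Aldh1a1 overlapped at day 15. Because the genes were chosen on these differences, the counts describe the choice and support nothing.

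**Figure D1:**
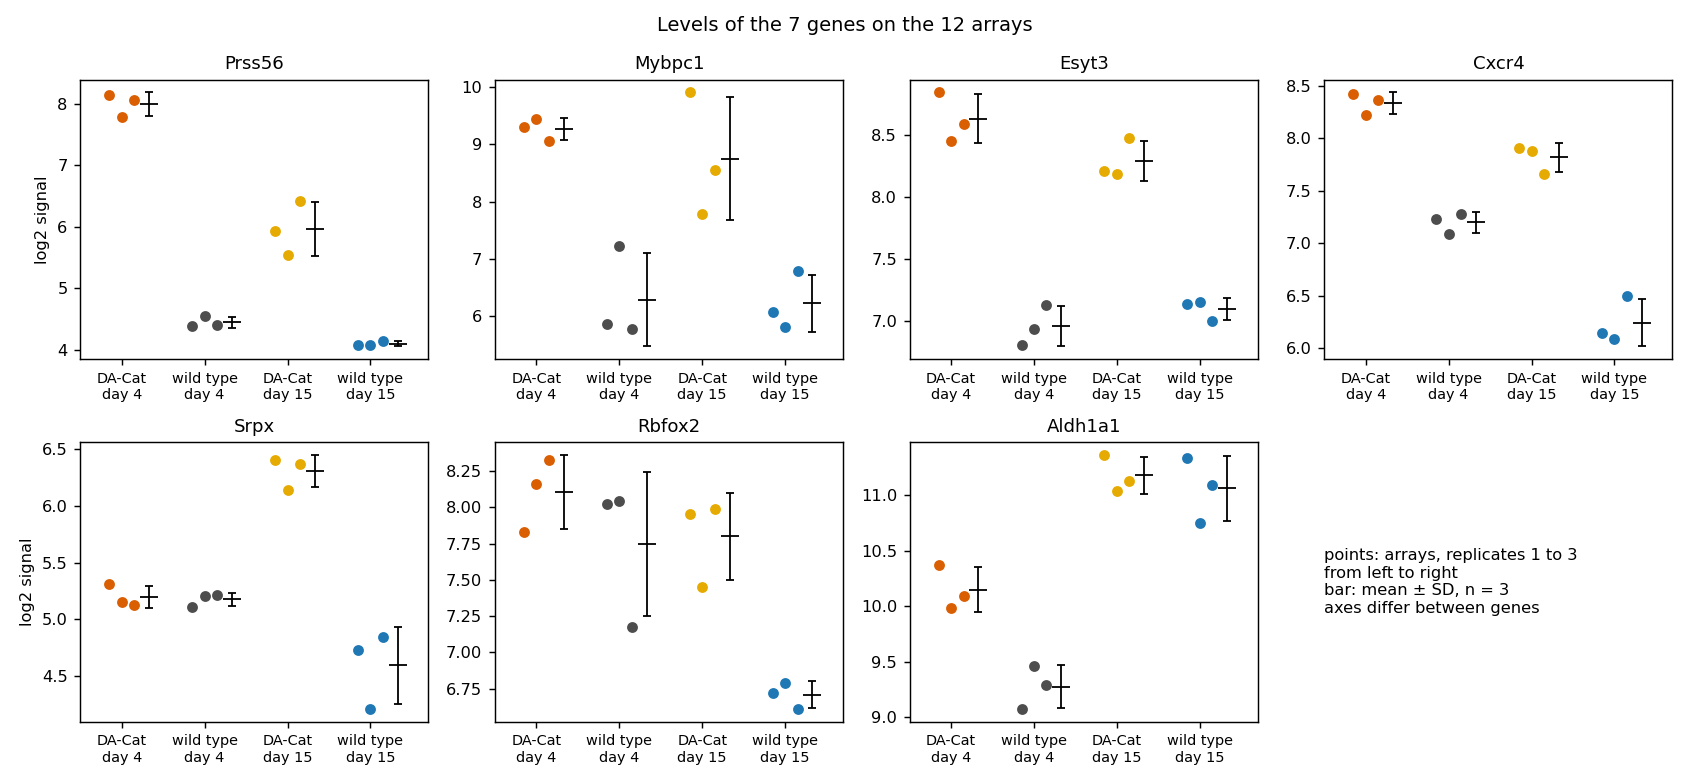
Log2 signal of the 7 genes (the probe set with the highest mean for each) on the 12 arrays, with Olig2cre/DA-Cat left of wild type at each day; points are arrays and bars the mean ± SD of 3. Prss56, Mybpc1, Esyt3 and Cxcr4 stood higher in Olig2cre/DA-Cat at both days, Aldh1a1 at day 4, and Srpx and Rbfox2 at day 15.

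Prss56, known from neural progenitors and from boundary cap cells at nerve roots, had the highest genotype difference of all 18194 genes at day 4. Its level was 8.14, 7.78 and 8.06 in Olig2cre/DA-Cat cords and 4.39, 4.55 and 4.40 in wild-type cords at day 4. The day 15 values were 5.93, 5.53 and 6.42 in Olig2cre/DA-Cat cords and 4.07, 4.08 and 4.15 in wild-type cords. No 2 of the 4 groups overlapped, and the order ran from Olig2cre/DA-Cat day 4 over Olig2cre/DA-Cat day 15 and wild type day 4 to wild type day 15. The genotype difference was 3.54 ± 0.17 (SE), or 11.7-fold, at day 4 and 1.86 ± 0.17 (SE), or 3.63-fold, at day 15, where it ranked 21 from the highest. The wild-type levels lay under the lower quartile of their arrays, so these folds are limited by background.

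The day contrasts did not choose the genes, but each is built from group means that the genotype contrasts also used. A gene chosen for a high Olig2cre/DA-Cat level on a given day is thereby favoured to read lower on the other day. The day tests of all the genes, here and below, are given with that reservation. Between the days Prss56 fell by 2.03 on the log2 scale in Olig2cre/DA-Cat cords (SE 0.17, limma adjusted p = 9.92e-07). In wild type the difference was -0.34 ± 0.17 (SE, adjusted p = 0.126); it passed with the 6 wild-type arrays alone (adjusted p = 0.00405) and without Olig2cre/DA-Cat day 15 replicate 2 (0.0387) or 3 (0.027), in 3 of 18 alternative fits whose highest adjusted p was 0.277. Schwann cell markers, which mark the progeny of boundary cap cells, were set beside these values. Of 5 measured markers, 0 were called at day 4 by limma (0 at an unadjusted p under 0.05). At day 15, 1 was called (3 at an unadjusted p under 0.05), Ncmap, which rose by 1.25 (adjusted p = 0.00485). Their mean was 7.16 to 7.37 in Olig2cre/DA-Cat and 6.98 to 7.34 in wild type at day 4. For day 15 it was 7.49 to 7.76 in Olig2cre/DA-Cat and 6.89 to 7.40 in wild type, without overlap. Their part in the Prss56 values was not tested.

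Other serine proteases and their inhibitors were set beside Prss56. Of 25 measured, 0 rose and 1 fell at day 4, and 0 rose and 2 fell at day 15 (0 to 2 in each direction when 1 array was left out), where 3.12% and 2.93% of all genes were called in either direction; the list medians were -0.07 and 0.08, against 0.03 and 0.02 for all genes. Klk6, a protease made by oligodendrocytes, was at 5.33, 5.24 and 5.16 in Olig2cre/DA-Cat cords and 6.79, 6.84 and 7.10 in wild-type cords at day 4. It fell by 1.66 at day 4 (adjusted p = 0.000246) and fell by 0.78 at day 15 (adjusted p = 0.0441); the day 15 call held in 3 of 12 fits that left out an array. Plat, tissue plasminogen activator, fell by 0.54 at day 15 (adjusted p = 0.0225, called in 8 of those 12 fits). The lower Klk6 ran beside the lower oligodendrocyte list given above, whose part in it was not tested.

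Cxcr4, through which Cxcl12 guides migrating precursors and blood cells, was higher in Olig2cre/DA-Cat at both days with little spread. Its level was 8.42, 8.23 and 8.37 in Olig2cre/DA-Cat cords and 7.23, 7.09 and 7.28 in wild-type cords at day 4. For day 15 the values were 7.91, 7.88 and 7.66 in Olig2cre/DA-Cat cords and 6.14, 6.09 and 6.50 in wild-type cords. The 4 groups did not overlap, and even the lowest Olig2cre/DA-Cat array at day 15 lay above every wild-type array of either day. The genotype difference was 1.14 ± 0.11 (SE) at day 4 and 1.58 ± 0.11 (SE), or 2.98-fold, at day 15. Between the days Cxcr4 fell by 0.52 in Olig2cre/DA-Cat (adjusted p = 0.00174) and fell by 0.96 in wild type (adjusted p = 1.69e-05), and both calls held in all 19 alternative fits.

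Of the other 21 measured genes of chemokine signalling, 1 rose at day 4 and 1 fell at day 15, a share near that of all genes (3.12% and 2.93% in either direction). Ackr3, the scavenger receptor that also binds Cxcl12, was at 8.27, 8.15 and 8.36 in Olig2cre/DA-Cat cords and 7.64, 7.60 and 7.68 in wild-type cords at day 4. It rose by 0.62 ± 0.09 (SE, limma adjusted p = 0.00225, called in 12 of 12 fits that left out an array) and differed by 0.09 at day 15 (adjusted p = 0.644). Cxcl12 itself differed by 0.04 at day 4 and 0.15 at day 15 (adjusted p = 0.794 and 0.358). Gnai1, a G protein subunit through which such receptors signal, fell by 0.29 at day 15 (adjusted p = 0.0208, called in 8 of 12 such fits). Of blood cells, which also carry Cxcr4, 7 lymphocyte and neutrophil markers were measured; their mean lay between 6.50 and 6.996 in Olig2cre/DA-Cat and between 6.52 and 7.04 in wild type at day 4. For day 15 it lay between 7.26 and 7.52 in Olig2cre/DA-Cat and between 6.53 and 7.45 in wild type. The genotypes overlapped at both days, and 0 of the 7 were called at either day by limma (1 at day 4 and 0 at day 15 had an unadjusted p under 0.05). The 9 endothelial markers averaged 7.52 to 7.55 in Olig2cre/DA-Cat and 7.43 to 7.57 in wild type at day 4. For day 15 they averaged 7.61 to 7.73 in Olig2cre/DA-Cat and 7.42 to 7.62 in wild type, and limma called 0 of them at either day (0 at day 4 and 3 at day 15 had an unadjusted p under 0.05). The part of blood and endothelial cells in the Cxcr4 values was not tested.

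Srpx was apart between the genotypes at day 15 and overlapped at day 4. At day 4 it was at 5.31, 5.15 and 5.13 in Olig2cre/DA-Cat cords and 5.11, 5.20 and 5.22 in wild-type cords, a difference of 0.02 ± 0.14 (SE). The day 15 levels were 6.40, 6.14 and 6.36 in Olig2cre/DA-Cat cords and 4.73, 4.21 and 4.84 in wild-type cords, a difference of 1.71 ± 0.14 (SE). The 2 groups of day 4 overlapped and lay between those of day 15. The genotypes moved in opposite directions between the days. Srpx rose by 1.11 ± 0.14 in Olig2cre/DA-Cat (SE, adjusted p = 2.43e-05) and fell by 0.58 in wild type (adjusted p = 0.00363), and both calls held in all 18 alternative fits that measured it. Both use the day 15 means that entered the genotype difference on which Srpx was chosen. The choice favours such a rise and fall, so these calls do not stand apart from it. The wild-type levels of day 15 lay near the lower quartiles of those arrays, which were 4.54, 4.52 and 4.50, and limit the fold.

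Srpx is also made by fibroblasts, so markers of meninges and fibroblasts were set beside it. None of the 10 was called in either genotype contrast by limma (0 at day 4 and 6 at day 15 had an unadjusted p under 0.05), and their mean was 8.60, 8.71 and 8.36 in Olig2cre/DA-Cat and 7.68, 7.82 and 8.62 in wild type at day 15. The genotypes overlapped through wild-type replicate 3, while wild-type replicates 1 and 2 lay below all 3 Olig2cre/DA-Cat arrays. For Srpx all 3 wild-type replicates lay below them, replicate 3 at 4.84 as well. The part of these cells in the Srpx values was not tested. Its relative Srpx2 differed by 0.37 at day 4 and 0.27 at day 15 (adjusted p = 0.131 and 0.307). Among 25 sushi-repeat and matrix genes, 2 rose at day 4 and 4 at day 15, and 0 fell, where 1.3% and 0.616% of all genes were called higher. The day 15 count ran from 0 to 5 when 1 array was left out, and was 0 without wild type day 15 replicate 1 or 2. It was 1 or 2 without any of 7 other arrays, Olig2cre/DA-Cat day 15 replicates 1 and 3, all 3 of Olig2cre/DA-Cat day 4 and wild type day 4 replicates 2 and 3. The day 4 count ran from 2 to 4, with 4 without Olig2cre/DA-Cat day 15 replicate 3. The matrix proteins Svep1 and Fbln1 rose at day 4 by 0.48 and 0.73 (adjusted p = 0.00144 and 0.00533). At day 15 Svep1 rose by 0.34 (adjusted p = 0.015), Fbln2 by 0.49 (adjusted p = 0.0323), Susd4 by 0.25 (adjusted p = 0.0407) and Susd2 by 0.24 (adjusted p = 0.045); Svep1 was called in 10 and Fbln2 in 6 of 12 fits that left out an array, and both Susd genes in 1.

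Esyt3 stood higher in Olig2cre/DA-Cat at both days. Its level was 8.85, 8.46 and 8.60 in Olig2cre/DA-Cat cords and 6.80, 6.94 and 7.13 in wild-type cords at day 4. The day 15 values were 8.21, 8.19 and 8.48 in Olig2cre/DA-Cat cords and 7.14, 7.15 and 6.997 in wild-type cords. Every Olig2cre/DA-Cat array lay over 1 log2 above every wild-type array, while within a genotype the days overlapped. The difference was 1.68 ± 0.12 (SE), or 3.20-fold, at day 4 and 1.20 ± 0.12 (SE), or 2.29-fold, at day 15. Between the days Esyt3 fell by 0.34 in Olig2cre/DA-Cat (adjusted p = 0.0278). That call was lost with the 6 arrays alone (adjusted p = 0.0523), with the muscle level as a covariate (0.0605) and without Olig2cre/DA-Cat day 15 replicate 1 (0.086) or 2 (0.094) or day 4 replicate 1 (0.124) or 3 (0.0511). In wild type the difference was 0.14 (adjusted p = 0.364).

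The 2 other extended synaptotagmins were measured as well. Esyt1 differed by 0.11 at day 4 and 0.25 at day 15 between the genotypes (adjusted p = 0.45 and 0.129), and Esyt2 by less than 0.1 at both (adjusted p = 0.988 and 0.7). Of 24 genes of contacts between endoplasmic reticulum and plasma membrane, 1 rose at day 4, Gramd1a, a sterol transfer protein, by 0.29 (adjusted p = 0.0263, called in 8 of 12 fits that left out an array). None was called at day 15 by limma, where 6 had an unadjusted p under 0.05. When 1 array was left out, 0 to 2 rose at either day, where 1.3% and 0.616% of all genes were called higher.

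Aldh1a1 stood higher in Olig2cre/DA-Cat at day 4 and was higher in both genotypes at day 15 than at day 4. At day 4 it was at 10.37, 9.98 and 10.09 in Olig2cre/DA-Cat cords and 9.07, 9.46 and 9.29 in wild-type cords, a difference of 0.88 ± 0.15 (SE), or 1.83-fold. The day 15 levels were 11.36, 11.04 and 11.13 in Olig2cre/DA-Cat cords and 11.34, 10.75 and 11.09 in wild-type cords, a difference of 0.12 ± 0.15 (SE). The genotypes were apart at day 4 and overlapped at day 15, and both groups of day 15 lay above both of day 4. Aldh1a1 rose between the days by 1.03 ± 0.15 in Olig2cre/DA-Cat (SE, adjusted p = 0.00012) and by 1.79 ± 0.15 in wild type (SE, adjusted p = 1.45e-06), in all 19 alternative fits.

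Of 26 other genes that make, carry, bind or break down retinoids, 1 rose at day 4 and 0 fell (1 to 2 and 0 when 1 array was left out), with a median of 0.12 and 3.12% of all genes called in either direction. It was Aldh1a7, a close rodent paralog of Aldh1a1, at 7.40, 7.25 and 7.43 in Olig2cre/DA-Cat cords and 6.62, 6.73 and 6.84 in wild-type cords, higher by 0.63 ± 0.09 (SE, adjusted p = 0.00281). Whether the probe sets of the paralogs share signal was not tested. Its difference at day 15 was 0.33 (adjusted p = 0.0931), and 0 of the 26 were called by limma there, with 8 at an unadjusted p under 0.05 and a median of 0.17; up to 3 rose and up to 1 fell when 1 array was left out. Of the other retinaldehyde dehydrogenases, Aldh1a2 differed by 0.30 and 0.43 between the genotypes (adjusted p = 0.566 and 0.469) and Aldh1a3 by -0.02 and 0.31 (adjusted p = 0.928 and 0.0931). Both went the other way from Aldh1a1 between the days: Aldh1a2, an enzyme of the meninges, fell by 1.61 in Olig2cre/DA-Cat and fell by 1.74 in wild type (adjusted p = 0.000358 and 0.000226). Aldh1a3 fell by 0.26 in Olig2cre/DA-Cat and fell by 0.59 in wild type (adjusted p = 0.0299 and 0.00016).

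**Figure D2:**
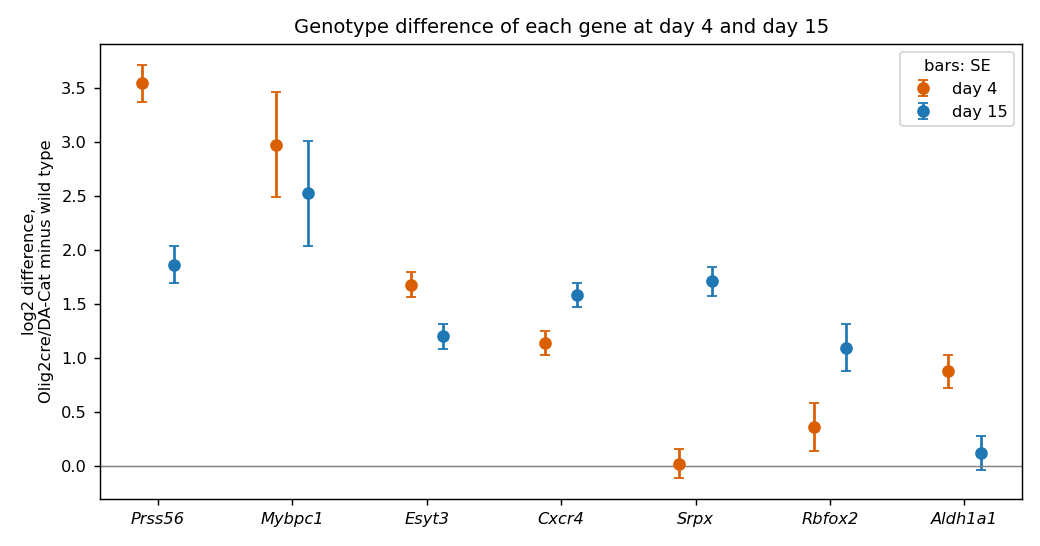
Log2 difference of Olig2cre/DA-Cat minus wild type for each of the 7 genes at day 4 and at day 15, with bars of 1 SE from the fit of 12 arrays. Prss56 was at 3.54 and 1.86, Srpx at 0.02 and 1.71, and Aldh1a1 at 0.88 and 0.12.

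The Rbfox2 difference at day 15 rested on 1 of 4 probe sets. On 1418245_a_at, which has the highest mean, the level was 7.83, 8.16 and 8.33 in Olig2cre/DA-Cat cords and 8.03, 8.05 and 7.18 in wild-type cords at day 4. The day 15 values were 7.95, 7.45 and 7.99 in Olig2cre/DA-Cat cords and 6.72, 6.79 and 6.61 in wild-type cords. The genotypes overlapped at day 4, where wild-type replicate 3 was low, and were apart at day 15. The difference was 0.36 ± 0.22 (SE) at day 4, or 0.07 without that replicate, and 1.09 ± 0.22 (SE) at day 15. On 1434938_at the values at day 15 were 6.46, 6.58 and 6.60 in Olig2cre/DA-Cat cords and 6.64, 6.44 and 6.64 in wild-type cords, a difference of -0.02. The probe sets 1418246_at and 1418247_s_at, near the array lower quartiles, differed by 0.02 and 0.04 at day 15 with overlapping genotypes. At day 4 they differed by 0.21 and 0.13, without overlap. The mean over the 4 probe sets differed by 0.18 at day 4 and 0.28 at day 15. Which transcripts each probe set reads was not analysed here.

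**Figure D3:**
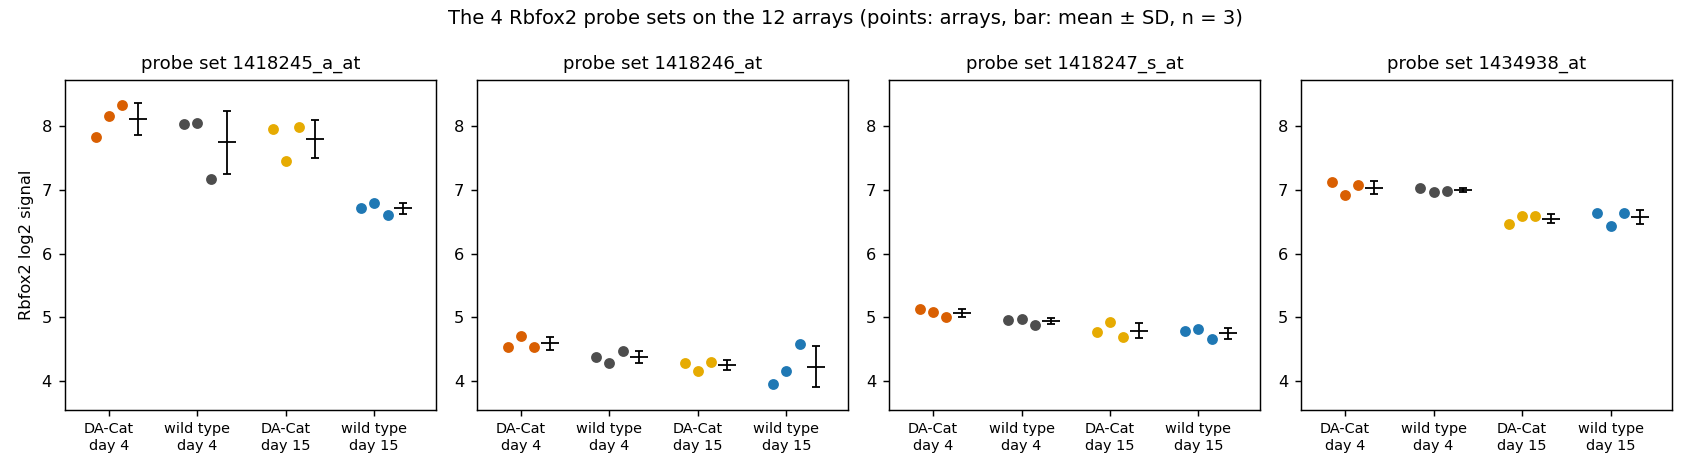
Log2 signal of the 4 Rbfox2 probe sets on the 12 arrays, on a common axis, with Olig2cre/DA-Cat left of wild type at each day; bars are the mean ± SD of 3 arrays. At day 15 the genotypes were apart on 1418245_a_at alone (7.80 ± 0.30 in Olig2cre/DA-Cat, 6.71 ± 0.09 in wild type), while 1434938_at was at 6.55 ± 0.07 in Olig2cre/DA-Cat and 6.57 ± 0.12 in wild type.

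The probe sets also parted in the day contrasts. On 1418245_a_at Rbfox2 fell by 1.04 between the days in wild type (adjusted p = 0.00178 over genes, called in 19 of 19 alternative fits), and differed by -0.31 in Olig2cre/DA-Cat (adjusted p = 0.279). On 1434938_at it fell by 0.49 in Olig2cre/DA-Cat and fell by 0.42 in wild type (adjusted p = 0.000282 and 0.000967 over all probe sets, of which 35.7% and 33.1% were called). On the mean over the probe sets it fell by 0.35 in Olig2cre/DA-Cat (adjusted p = 0.000661). The neuronal relatives Rbfox1 and Rbfox3 differed between the genotypes by 0.22 and 0.05 at day 4 (adjusted p = 0.0601 and 0.826) and by 0.29 and 0.22 at day 15 (adjusted p = 0.0163 and 0.366), the Rbfox1 call holding in 8 of 12 fits that left out an array. Of 29 splicing regulators, 1 rose and 2 fell at day 4, and 2 rose and 1 fell at day 15, where 3.12% and 2.93% of all genes were called in either direction. When 1 array was left out, 0 to 3 rose and 2 to 3 fell at day 4, and 0 to 4 rose and 0 to 1 fell at day 15. None was called at day 15 by limma without Olig2cre/DA-Cat day 15 replicate 1 or 3 or wild type day 15 replicate 3, 1 without wild type day 15 replicate 1 or 2, and 5 without Olig2cre/DA-Cat day 15 replicate 2. At day 4, 5 were called without Olig2cre/DA-Cat day 15 replicate 2 or wild type day 4 replicate 3. Celf2 rose by 0.25 and 0.24 (adjusted p = 0.0292 and 0.035; called in 7 and 3 of those 12 fits). Qk, which binds myelin messenger RNAs in oligodendrocytes, fell by 0.54 at day 4 and fell by 0.41 at day 15 (adjusted p = 0.00307 and 0.0192; called in 12 and 8 of those fits), and Mbnl2, which also binds alternative exons, fell by 0.42 at day 4 (adjusted p = 0.00574).

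Mybpc1 had the second highest genotype difference at day 4 and the third highest at day 15, and it is a muscle gene, so each array's muscle level is given with it. On 1455645_at its level was 9.31, 9.43 and 9.06 in Olig2cre/DA-Cat cords and 5.87, 7.23 and 5.77 in wild-type cords at day 4. For day 15 the values were 9.90, 7.78 and 8.55 in Olig2cre/DA-Cat cords and 6.07, 5.81 and 6.78 in wild-type cords. Every Olig2cre/DA-Cat array lay above every wild-type array of either day. The genotype difference was 2.97 ± 0.49 (SE) at day 4 and 2.52 ± 0.49 (SE) at day 15. The other probe sets had differences of 2.60 and 2.02 at day 4 and of 2.22 and 1.64 at day 15, and their groups did not overlap either.

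The 13 measured markers of fast skeletal muscle had a mean of 5.83, 8.80 and 7.57 in Olig2cre/DA-Cat and 5.69, 8.11 and 6.49 in wild type at day 4. For day 15 it was 11.78, 5.81 and 9.46 in Olig2cre/DA-Cat and 7.06, 5.70 and 8.31 in wild type. Pvalb, 1 of the 13, rose by 3.57 between the days in wild type (limma adjusted p = 1.12e-06), where no other gene of the list was called. At day 15 it was at 11.86, 11.68 and 11.61 in wild type and did not follow the list mean there. It is part of the muscle level used below, and a fit without it was not run. The slow and developing muscle list, of 13, ran from 5.35 to 6.70 in Olig2cre/DA-Cat and from 5.30 to 6.38 in wild type at day 4. For day 15 it ran from 5.44 to 7.29 in Olig2cre/DA-Cat and from 5.35 to 5.77 in wild type. None of these 26 genes was called in either genotype contrast by limma (0 at day 4 and 1 at day 15 had an unadjusted p under 0.05), yet 8 of them stood among the 25 genes with the highest difference at day 4 and 11 at day 15. In each of the 4 groups, Mybpc1 on 1455645_at and on 1444341_at was highest on the array with the highest fast muscle level. On 1442769_at this held in 3 groups, whereas in Olig2cre/DA-Cat at day 4 that array, replicate 2, read 7.27, the lowest of its group.

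The values on the arrays with the least muscle signal describe 1 array a group. The Olig2cre/DA-Cat array with the lowest fast muscle level at day 4 (5.83) had Mybpc1 at 9.31, and that of wild type (5.69) had it at 5.87. At day 15 the Olig2cre/DA-Cat array with the lowest level (5.81) had 7.78, and that of wild type (5.70) had 5.81. The gap between these arrays was 3.43 at day 4 and 1.97 at day 15 on 1455645_at, 2.78 and 1.58 on 1442769_at, and 2.47 and 1.12 on 1444341_at. With the muscle level as a covariate in the fit, the genotype difference was 2.77 at day 4 and 1.87 at day 15. These differences are among the values that chose the gene, and the part of muscle tissue in them was not tested. Of 8 other sarcomere proteins, 0 were called by limma at day 4 (0 at an unadjusted p under 0.05) and 0 at day 15 (1 at an unadjusted p under 0.05). Mybpc2, the fast muscle form, differed by 0.19 and 2.10 (adjusted p = 0.924 and 0.251), and Mybpc3, the cardiac form, by -0.15 and 0.01 (adjusted p = 0.27 and 0.947).

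**Figure D4:**
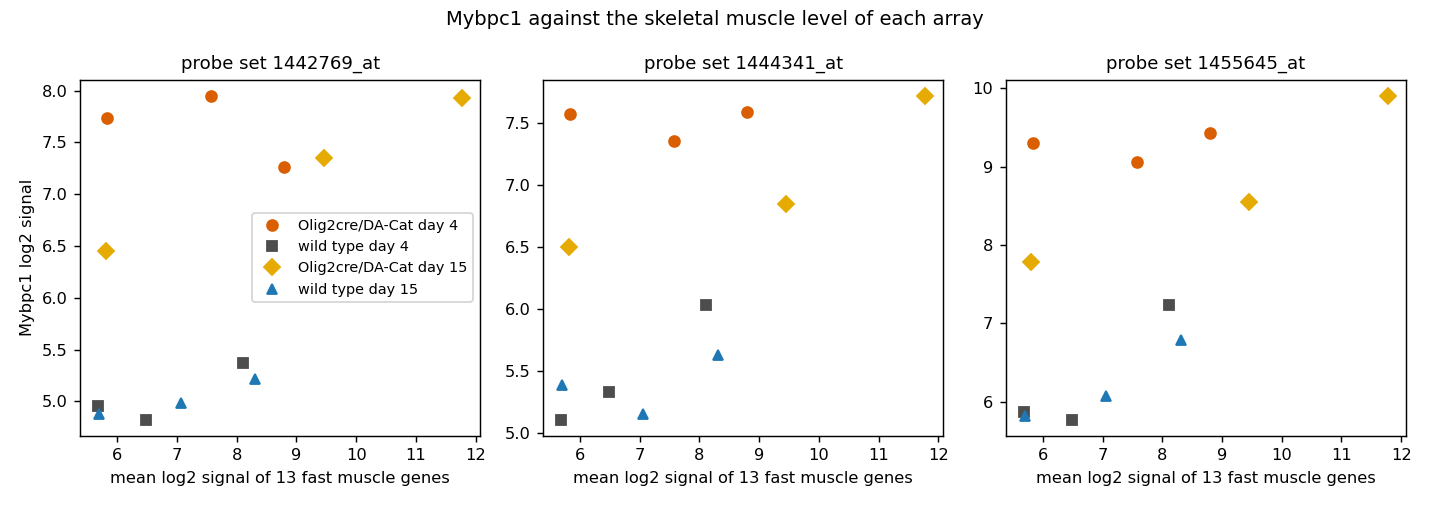
Log2 signal of the 3 Mybpc1 probe sets against the mean log2 signal of 13 fast skeletal muscle genes, 1 point per array. On the arrays with the lowest muscle level, 1455645_at read 9.31 in Olig2cre/DA-Cat and 5.87 in wild type at day 4, and 7.78 in Olig2cre/DA-Cat and 5.81 in wild type at day 15.

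Between the days Mybpc1 differed by -0.52 in Olig2cre/DA-Cat (adjusted p = 0.419) and by -0.07 in wild type (adjusted p = 0.93). The Olig2cre/DA-Cat difference passed with the muscle level as a covariate, at -1.05 (adjusted p = 0.00899), and without Olig2cre/DA-Cat day 15 replicate 1, the array with the most muscle signal, at -1.10 (adjusted p = 0.0473). Over all 7 genes, 5 were called between the days in Olig2cre/DA-Cat (2 rose, 3 fell) and 4 in wild type (1 rose, 3 fell), where 48.1% (Olig2cre/DA-Cat) and 44.9% (wild type) of all genes were called. These shares are near the background and are no result about the 7 genes as a group. The direction differed among them: Aldh1a1 rose and Cxcr4 fell in both genotypes, and Srpx rose in Olig2cre/DA-Cat and fell in wild type.

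**Figure D5:**
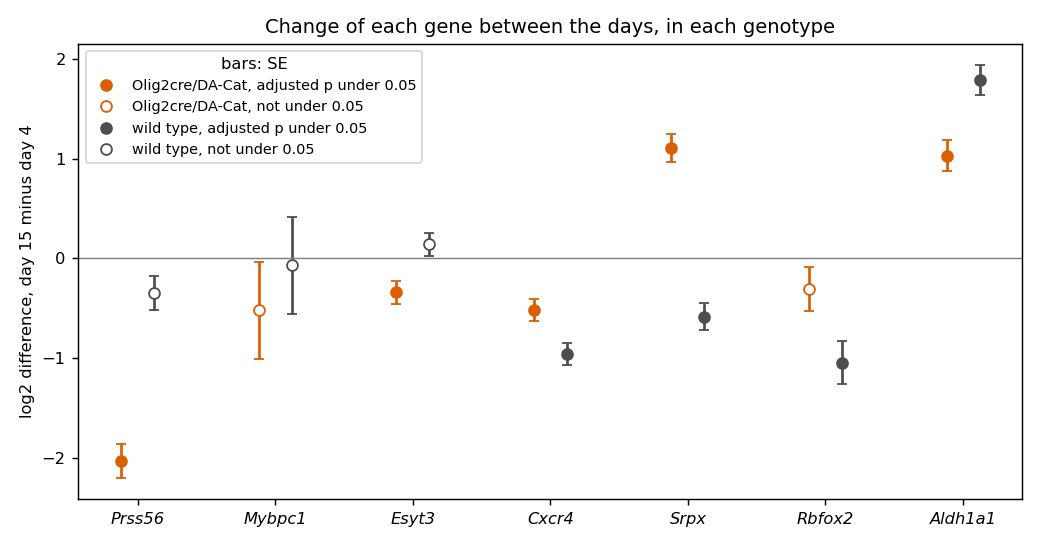
Log2 difference of day 15 minus day 4 for each of the 7 genes in Olig2cre/DA-Cat and in wild type, with bars of 1 SE; filled points passed an adjusted p of 0.05. Prss56 fell by 2.03 in Olig2cre/DA-Cat, Srpx was at 1.11 in Olig2cre/DA-Cat and -0.58 in wild type, and Aldh1a1 was at 1.03 in Olig2cre/DA-Cat and 1.79 in wild type.

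For each gene, the 3 genes outside the 7 with the most similar profile were taken, with clone names and sex-linked genes passed over. The smallest root mean square difference of log2 signals over the 12 arrays counted as most similar, each gene centred on its own mean. Those of Prss56 were Notum, Wif1 and Nkd1, at 0.60, 0.64 and 0.83 log2, against a range of 4.06 for Prss56 itself. Notum and Wif1 are secreted inhibitors of Wnt ligands and Nkd1 acts on Dishevelled. Those of Mybpc1 were Wif1, Notum and the muscle LIM protein gene Csrp3, at 0.56, 0.88 and 1.06. Those of Esyt3 were Tnfrsf19, a receptor of the tumour necrosis factor receptor family, at 0.38, Rnf43, a ubiquitin ligase for Wnt receptors, at 0.39, and Nkd1 at 0.44. Cxcr4 was closest to Ppp1r3b, a glycogen-targeting subunit of protein phosphatase 1, at 0.35, to Axin2 at 0.38 and to Proser2 at 0.40. Thus 4 of the 7 genes had a member of the Wnt feedback comparison list among the 3 genes taken. Both sets were chosen with genotype differences known, so this describes levels over 4 groups and nothing more.

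The other genes were closest to genes outside that list. Srpx lay nearest to Kdelr3, a receptor that retrieves endoplasmic reticulum proteins, at 0.38, and to Sbspon and Snorc at 0.40 and 0.43. Rbfox2 lay nearest to Proser2 at 0.29, the nuclear receptor gene Nr2f2 at 0.32 and the receptor gene Notch2 at 0.33. Aldh1a1 lay nearest to Gadd45g, a stress and growth arrest gene, at 0.29, and to Mettl7a1 and Medag, both at 0.31. Among the 7 themselves, Esyt3 and Cxcr4 were the closest pair at 0.44, and Prss56 and Aldh1a1 the farthest at 1.73. Srpx and Prss56 were 1.46 apart. Prss56 and Mybpc1 were 0.78 apart, nearer than Nkd1 was to Prss56 or Notum to Mybpc1. Esyt3 and Cxcr4, at 0.91 and 0.96, were also nearer to Mybpc1 than Csrp3 was. The genotype difference at day 15 minus that at day 4 was -1.68 ± 0.24 (SE) for Prss56 and 1.69 ± 0.19 (SE) for Srpx; both follow from the contrasts that chose the genes and were not tested.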

How the data were processed

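Biotin-labelled total RNA of 12 spinal cord samples was measured on Affymetrix 3' arrays, per the labels. The authors deposited 1 log2 signal per probe set and array; the sources used here do not give their background correction, probe summary and normalization, and the log2 scale was judged from the values. The platform annotation gave 34958 of 45101 probe sets 1 symbol, 932 several and 9211 none; 34754 matched RefSeq GRCm38.p6 and 0 symbols changed. Each of 18194 genes was represented by its brightest probe set. All arrays were fitted with 1 mean per group in limma 3.58.1 (R 4.3.3; lmFit, contrasts.fit, eBayes), and p-values were Benjamini-Hochberg adjusted over all genes, with a threshold of 0.05; a second fit took all probe sets. Adjusted p-values in all parts come from these fits. The fit was tested on simulated data.

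Members, 8 pathway lists and 12 marker lists were chosen with earlier results of these data known. Of 184 pathway entries 172 were measured; the others were not analysed here. Named were the members, 3 nearest profiles each, up to 4 called genes per list by smallest p and the closest family members; gene Susd2 and the markers named were chosen after their values were seen. Alternatives were another summary of probe sets, quantile normalization, leaving out the dimmest 30% of genes, trend and robust settings, the 6 arrays compared, a replicate block, the muscle level as a covariate and leaving out each of 12 arrays. No read depth exists for arrays; their number limits the precision.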

Additional observations from a re-analysis of the deposited data

Results flagged for a closer look

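Nkd1 is a Wnt feedback gene used for comparison and one of the closest profiles of Prss56 and Esyt3 outside the 7. Its genotype effects differed between the days. It was higher in Olig2cre/DA-Cat by 2.15 at day 4 and by 0.30 at day 15, and the limma interaction contrast, day 15 minus day 4, was -1.85 (adjusted p = 0.000935). Of the genes named above outside the 7, it was the only gene whose interaction passed. Other genes of the lists passed as well. Sp5 of the Wnt feedback list was at -1.18 (limma adjusted p = 0.0186). Every measured gene of the oligodendrocyte list passed, among them Mobp at 2.50 and Mog at 2.61 (limma adjusted p = 1.41e-06 and 0.000144).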

How the results depend on the processing

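Of the 18194 genes, 567 were called between the genotypes at day 4 (237 higher, 330 lower), 853 without the dimmest 30% of genes (464 and 389), and 260 to 752 when 1 array was left out. They were 260 without wild type day 4 replicate 1, 306 without its replicate 2, 260 without Olig2cre/DA-Cat day 4 replicate 2 and 261 without its replicate 3. The split was 125 and 382 with quantile normalization and 437 and 407 with trend and robust settings. At day 15 there were 533 (112 and 421), 136 from the 6 arrays alone, 309 with the muscle covariate, and 292 to 935 when 1 array was left out, with 292 without wild type replicate 1, 935 without Olig2cre/DA-Cat replicate 2 and 299 without its replicate 3. Day counts were 8744 in Olig2cre/DA-Cat (7760 to 8819 when 1 array was left out) and 8161 in wild type (7156 to 8304). The cause of these shifts was not tested; the filter tests fewer genes and the 6 arrays are fewer samples. Among the genotype differences of the 7 genes, 261 values under alternatives moved by less than the replicate SD and 1 by more, Rbfox2 at day 15 with the mean over its probe sets. Of their day differences, 250 stayed on their side of the threshold, 6 lost and 6 gained a call, and 0 turned sign with a call. Prss56 and Srpx are dim and drop out with the filter. With the replicate number as a block, the counts were 604 at day 4, 501 at day 15, 8809 between the days in Olig2cre/DA-Cat and 8195 in wild type. Deviations of same-numbered arrays correlated between -0.297 and 0.297, so the numbers were not taken to pair the samples.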

Other observations

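The gene lists set beside the 7 genes also changed between the days. Of 29 splicing regulators, 22 fell and 4 rose between the days in Olig2cre/DA-Cat, and 23 fell and 4 rose in wild type, with list medians of -0.42 and -0.41. Celf2 fell by 0.85 in Olig2cre/DA-Cat and fell by 0.84 in wild type (limma adjusted p = 9.99e-08 and 1.55e-07). Mbnl2 rose by 1.72 in Olig2cre/DA-Cat and by 1.46 in wild type (adjusted p = 3.14e-09 and 1.88e-08). Of 26 retinoid genes, 11 fell in each genotype, while 1 rose in Olig2cre/DA-Cat and 2 in wild type. Of 21 chemokine signalling genes, 4 rose and 5 fell in Olig2cre/DA-Cat and 4 rose and 7 fell in wild type; among them Cxcl12 rose by 0.94 in Olig2cre/DA-Cat and by 0.83 in wild type (adjusted p = 8.57e-07 and 3.05e-06), while its receptor Cxcr4 fell in both. Klk6 rose by 5.55 in Olig2cre/DA-Cat and by 4.66 in wild type (limma adjusted p = 9.71e-10 and 7e-09). Over all genes, 48.1% and 44.9% were called between the days.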
